A study of Mus musculus with 5 samples.

Results

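Day 21 after cardiotoxin injury was compared with day 7 in regenerating mouse muscle, across all 217 microRNAs (miRNAs) that had a TaqMan assay in both deposited sets of values. The samples set side by side were 2 of the 5 in the series, and 216 of the 217 miRNAs were detected in both and could be tested. The miRNAs of the miR-30 family, miR-26a, miR-26b, miR-101a, miR-99a and miR-100 were higher on day 21. So were 2 of 5 muscle-enriched miRNAs, miR-1 and miR-133a, and 4 of 6 vessel wall miRNAs, miR-143, miR-145 and both arms of miR-126. Of these, miR-1, miR-133a, miR-26a, miR-26b, miR-99a and miR-126-3p did not pass under every scaling run. The miRNAs that were lower included miR-298, miR-351, 10 of 30 miRNAs of the imprinted Dlk1-Dio3 region and 4 of 5 tested epithelial miRNAs. Those 4 belong to the miR-200 family, and the remaining one, miR-203, was higher. miR-141 of that family, miR-203 and miR-323-3p of the Dlk1-Dio3 region also did not pass under every scaling run. In the Dlk1-Dio3 region 1 miRNA, miR-136, was higher, again not under every scaling, and 19 were called in neither direction. The rule behind these counts, explained below, called 19% of the 216 miRNAs higher and 14.4% lower.

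All muscles were the tibialis anterior, a leg muscle, of C57BL/6J male mice aged 4 to 6 months, and the labels name no transgene or deletion. Both hind limbs had been injected with 100 µl of 2.5 µM cardiotoxin, and the muscles were collected 7 or 21 days later from 4 mice per time point. Uninjected muscle served as the baseline, which is not an arm of the comparison and serves to place the levels of the 2 time points. Days 1, 3 and 4 after injection and the baseline entered the statistical fit to share its estimate of the spread. Each arm held 4 threshold cycle (Ct) values per assay, where Ct is the PCR cycle at which product is first seen, and abundant RNAs therefore have low Ct values. The values are not labelled by mouse. They were taken as the 4 mice of a time point, and if they are repeats of fewer mice the p-values measure technical spread. Which plates or runs the wells came from is not given in the sources used here, so that time point and run cannot be told apart.

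Cardiotoxin is a venom peptide that destroys muscle fibres while sparing the satellite cells, the stem cells that then divide and fuse into new fibres. At the earlier of these time points a mouse muscle holds many small new fibres with central nuclei, along with macrophages and fibroblasts, and at the later one the fibres have grown and the infiltrate has largely cleared. A miRNA guides the silencing complex to messenger RNAs through its seed, bases 2 to 8 of the mature strand, so that miRNAs with a common seed can share targets. In whole muscle, fewer cells of a type and less RNA per cell cannot be told apart.

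Mature sequences of the miRNAs that carry the comparison are given first, from RefSeq (GRCm38.p6), 5′ to 3′, with the seed in capitals. Of the 216 tested assays, 144 matched a mature sequence, and where an assay name gives no arm the strand that usually carries the plain name was taken. The 4 miRNAs whose matched sequence has the seed GUAAACA are shown because all of them rose. Their hairpins lie at chr1:23272269-23272339 (plus strand, miR-30a), chr1:23291701-23291784 (plus) and chr4:120769534-120769622 (minus) for the 2 copies of miR-30c, chr4:120772606-120772697 (minus, miR-30e) and chrX:105344282-105344369 (minus, miR-384).
miR-30a: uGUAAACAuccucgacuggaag
miR-30c: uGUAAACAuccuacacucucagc
miR-30e: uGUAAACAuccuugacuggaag
miR-384-5p: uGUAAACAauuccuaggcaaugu

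Within each of the next 3 seed groups members had log2 differences of both signs. The seeds are ACCCGUA for miR-99 and miR-100, AGCACCA for miR-29, and CCCUGAG for miR-351 and miR-125. The hairpin of miR-100 lies at chr9:41531425-41531504 on the plus strand.
miR-100: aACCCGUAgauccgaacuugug
miR-99a: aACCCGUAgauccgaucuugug
miR-99b: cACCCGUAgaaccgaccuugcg
miR-29a: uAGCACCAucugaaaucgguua
miR-29b: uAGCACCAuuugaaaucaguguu
miR-29c: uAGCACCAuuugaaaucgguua
miR-351: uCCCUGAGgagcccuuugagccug
miR-125a-5p: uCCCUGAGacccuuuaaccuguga
miR-125b-5p: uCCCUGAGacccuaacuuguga

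The 2 seeds of the miR-200 family, AACACUG and AAUACUG, are shown because every tested miRNA with either of them fell. The hairpins of miR-200a and miR-200b lie close together at chr4:156054896-156054985 and chr4:156055681-156055750 on the minus strand, and those of miR-141 and miR-200c at chr6:124717914-124717985 and chr6:124718322-124718390, also on the minus strand.
miR-200a: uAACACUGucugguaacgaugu
miR-141: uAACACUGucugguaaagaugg
miR-200b: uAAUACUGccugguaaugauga
miR-200c: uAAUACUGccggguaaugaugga

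The last set holds miR-101a (hairpin at chr4:101346945-101347027, minus strand), the pair miR-26a and miR-26b, the miRNAs at either end of the ranking, miR-204 (chr19:22750605-22750672, plus) and miR-298 (chr2:174267504-174267585, minus), and miR-425 and miR-489, which share a seed of which one fell and the other rose.
miR-101a: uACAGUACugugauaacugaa
miR-26a: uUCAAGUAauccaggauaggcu
miR-26b: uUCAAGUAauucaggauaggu
miR-204: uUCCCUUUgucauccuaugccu
miR-298: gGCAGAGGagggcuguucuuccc
miR-425: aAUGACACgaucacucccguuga
miR-489: aAUGACACcacauauauggcagc

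Levels are given as normalised Ct, the raw Ct minus the offset of its set of wells. The offset is the median deviation of 205 miRNAs from the mean of both time points. These 205 were under Ct 35 in every well of all 6 arms, the baseline and days 1, 3 and 4 included. A change is the day 7 mean minus the day 21 mean, in log2 units, and is positive where the miRNA was higher on day 21. Levels of different assays are not compared, because assays differ in efficiency. On this scale limma, at a threshold of 0.05 for the adjusted p, found 76 of 216 miRNAs higher (35.2%) and 76 lower (35.2%) on day 21. With U6, a small nuclear RNA that the files mark as the endogenous control, as the reference, 43 were higher (19.9%) and 31 lower (14.4%). Passing on both scales were 41 miRNAs higher (19%) and 31 lower (14.4%), and "rose" and "fell" below are used only of these 72. A further 35 higher and 45 lower passed relative to the median miRNA only, 2 higher (miR-486 and miR-181c) relative to U6 only, and 0 passed in opposite directions on the 2 scales. The 4 values of the time points did not overlap for 69 miRNAs in the higher direction (31.9%) and 79 in the lower (36.6%).

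Of the 41 that rose, 33 changed at least 2-fold, 2 at least 4-fold and 0 at least 8-fold, and their median change was 1.31. Of the 31 that fell, all 31 changed at least 2-fold, 18 at least 4-fold and 8 at least 8-fold, with a median of -2.16. The need to pass with U6 shaped these shares unequally, because changes were more positive relative to U6 than to the median miRNA. miR-130b at -1.10 did not pass with U6 (limma adjusted p 0.0558), while miR-139-5p at 0.85 did (0.0429). The median over all 216 was -0.11, or 0.02 relative to U6. The assays of those that rose were read at a median normalised Ct of 20.24 over both time points, those of the fallers at 26.98 and the rest at 21.95, which gives the cycle of reading and not the relative abundance. Near the threshold on the median-miRNA scale, the 5 passing miRNAs with the highest adjusted p (0.0251 to 0.0488) had changes between -1.78 and 0.53, and the 5 nearest beyond it (0.0571 to 0.0748) between -0.92 and 1.24.

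**Figure D1:**
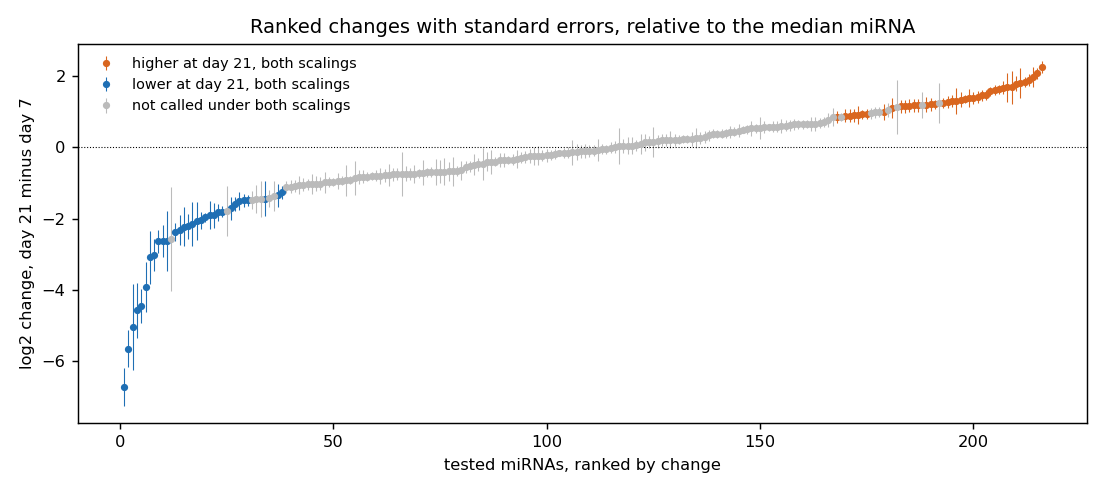
Log2 change from day 7 to day 21 of the 216 tested miRNAs, relative to the median miRNA, ranked along the horizontal axis, with the standard error of the fit as vertical lines. Orange points are the 41 that rose and blue points the 31 that fell on both scales; the left end reaches -6.71 (miR-298) and the right end 2.26 (miR-204).

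The control RNA U6 varied between wells. Raw Ct of U6 was 12.74, 14.15, 14.44 and 12.87 on day 7 and 15.08, 15.00, 14.06 and 14.12 on day 21. The 2 time points overlapped, and day 7 alone spanned more than a cycle. The median residual SD was 0.26 cycles on the median-miRNA scale and 0.64 on the U6 scale. Without any scaling, raw Ct gave 15 higher and 143 lower, 9.49% of calls higher against 50% on the median-miRNA scale, with a median change of -0.99. With snoRNA202 as the reference 25% of calls were higher, and with U87 34.5%. Of the 72 miRNAs that rose or fell, 46 kept their call on raw Ct and 62 under quantile scaling. With the other control RNAs, 64 kept it for snoRNA202, 66 for U87, and 72 each for snoRNA135 and Y1. A test against a 1.5-fold threshold kept 63 and lost miR-489, miR-181a, miR-136, miR-194, miR-29a, miR-16, miR-203, miR-139-5p and miR-323-3p. The shares of all tested that rose (19%) and fell (14.4%) are the background to each list's counts below. For counts on the median-miRNA scale alone the background is 35.2% higher and 35.2% lower. Values 2 and 3 of day 7 lay closer together (median absolute difference 0.11 cycles) than the other pairs of that arm (0.26 to 0.33). Counting them as 1 value gave 74 higher and 77 lower. On day 21 values 3 and 4 (0.18) and values 1 and 2 (0.22) lay closer together than the other pairs (0.27 to 0.32). No fit counted these day 21 pairs as 1 value.

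Of the 5 muscle-enriched miRNAs, 2 rose, miR-1 and miR-133a, and 0 fell, where 19% rose and 14.4% fell over all tested. Both are made from paired genes that the myogenic transcription factors switch on, and in muscle miR-1 promotes differentiation. Normalised Ct of miR-1 was 15.40, 15.47, 14.78 and 16.26 on day 7 and 13.45, 13.62, 13.85 and 14.24 on day 21, against a baseline mean of 12.35 ± 0.14 (SD, n = 4). All 4 day 21 values showed more miR-1 than any day 7 value and less than any baseline value. The change was 1.69 ± 0.46 (SE), or 3.22-fold, with an adjusted p of 0.00278 by limma (0.0178 relative to U6). For miR-133a the values were 11.53, 11.58, 11.67 and 12.14 on day 7 and 9.97, 9.90, 10.33 and 10.00 on day 21, with a baseline mean of 8.78 ± 0.16. That is a change of 1.68 ± 0.41, adjusted p 0.00122, again with no overlap. Quantile scaling ended both calls (miR-1 0.61, adjusted p 0.15; miR-133a 0, adjusted p 1), as did raw Ct (0.80, adjusted p 0.131; 0.80, adjusted p 0.0986).

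The other 3 muscle-enriched miRNAs did not pass on both scales. miR-133b, which shares most of its sequence with miR-133a and whose assay was not tested for reading both, had normalised Ct 15.62, 15.61, 15.87 and 15.76 on day 7 and 15.99, 15.49, 15.46 and 15.58 on day 21. These overlap, and its change of 0.08 ± 0.28 (adjusted p 0.795) turned negative with snoRNA202 (-0.42), U87 (-0.13), quantile scaling (-0.73) and raw Ct (-0.80). miR-486, abundant in muscle and in red cells, had 26.50, 27.27, 26.95 and 26.96 on day 7 and 26.12, 27.12, 24.46 and 25.01 on day 21. Value 2 of day 21 lay inside the day 7 range, and the change of 1.24 passed with U6 (adjusted p 0.0193) but not with the median miRNA (0.058). miR-499, encoded in a slow myosin gene, was at -0.46 ± 0.46 (adjusted p 0.365), and at 0.84 under quantile scaling. The list's median change was 1.24, against -0.11 over all tested.

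All 5 members of the miR-30 family rose, with a list median of 1.83. miR-30 miRNAs are broadly expressed and are abundant in differentiated muscle and heart. Normalised Ct of miR-30a was 18.53, 18.63, 18.64 and 18.86 on day 7 and 16.80, 16.43, 16.71 and 16.42 on day 21. That of miR-30c was 15.96, 16.03, 15.94 and 16.54 on day 7 and 14.41, 14.19, 14.21 and 14.32 on day 21. In both miRNAs the gap between the time points was wider than the spread within either. The changes were 2.07 ± 0.15 for miR-30a (4.21-fold, adjusted p 2.93e-10) and 1.83 ± 0.15 for miR-30c (3.56-fold, adjusted p 2.54e-09). miR-30e changed by 1.88 ± 0.17, miR-30b by 1.63 ± 0.13 and miR-30d by 1.57 ± 0.13. Relative to U6 the family's adjusted p ran from 0.000245 (miR-30e) to 0.00541 (miR-30b). On raw Ct the family's median was 0.95, and with snoRNA202 1.33, so that its sign held under every scaling run.

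miR-384-5p, which has the same GUAAACA seed as miR-30a, miR-30c and miR-30e but another 3′ part, rose as well. Its normalised Ct was 25.58, 26.39, 26.42 and 26.39 on day 7 and 24.89, 24.51, 24.24 and 23.98 on day 21. One day 7 value stood apart from the other three, towards day 21, and the groups still did not overlap. The change was 1.79 ± 0.20 (adjusted p 1.51e-07). The 4 miRNAs printed above with this seed lay between 1.79 and 2.07. miR-30a and miR-30e share all but a few bases, and cross-detection between their assays was not tested.

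miR-101a, miR-26a and miR-26b, a list of miRNAs that target the polycomb methyltransferase Ezh2, all rose (3 of 3, median 1.25). miR-101a was among the most even. It had 21.56, 21.66, 21.54 and 21.67 on day 7 and 20.32, 20.30, 19.91 and 20.04 on day 21, with 18.61, 18.40, 18.44 and 18.45 at baseline. Day 21 lay between the other 2 arms with no overlap on either side, and the change was 1.46 ± 0.15 (2.76-fold, adjusted p 4.89e-08, relative to U6 0.00326). miR-26a had 17.07, 16.67, 16.56 and 17.10 on day 7 and 15.56, 15.65, 15.57 and 15.63 on day 21. Its 4 day 21 values lay within 0.09 cycles of one another. The changes of miR-26a and miR-26b were 1.25 ± 0.15 and 1.21 ± 0.18, with adjusted p relative to U6 of 0.0305 and 0.049, and both calls were lost on raw Ct (0.36 and 0.32, adjusted p 0.0583 and 0.134).

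**Figure D2:**
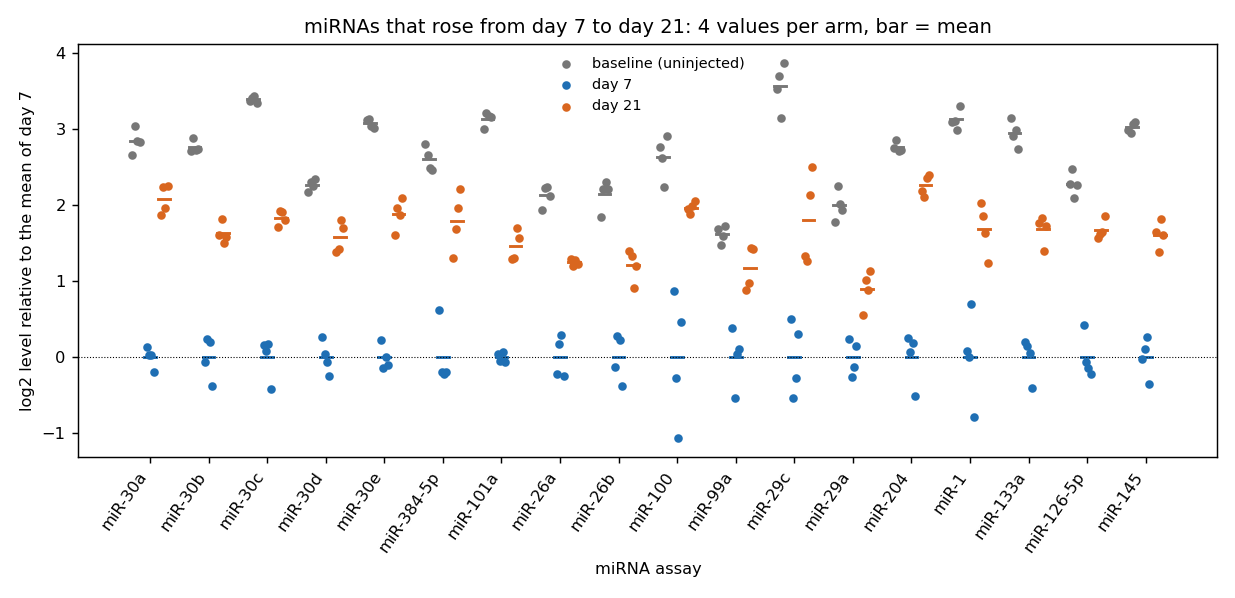
Log2 level of 18 miRNAs that rose, relative to each one's day 7 mean, with 4 values per arm as points and the arm mean as a bar. Grey is the uninjected baseline, blue day 7 and orange day 21; the orange points lie above the blue and below the grey, miR-100 among them with a wide spread on day 7.

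The miR-99/100 and miR-125 list split. miR-99a and miR-100, close relatives known to target the growth kinase mTOR, rose, and the other 5 of its 7 members did not pass on both scales. miR-100 had 19.11, 20.26, 21.04 and 19.52 on day 7 and 18.04, 18.10, 17.99 and 17.93 on day 21, with a baseline mean of 17.35 ± 0.29. The day 7 values spread over nearly 2 cycles while those of day 21 lay within 0.17, and the groups did not overlap. Its change was 1.97 ± 0.28 (3.91-fold, adjusted p 3.33e-06). miR-99a had 19.35, 20.26, 19.69 and 19.62 on day 7 and 18.85, 18.75, 18.30 and 18.31 on day 21, a change of 1.18 ± 0.19 (adjusted p 1.87e-05), lost on raw Ct (0.29, adjusted p 0.302).

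miR-99b has the seed of miR-100 but was at -0.40 ± 0.33 (adjusted p 0.283), with 23.29, 22.14, 21.16 and 21.49 on day 21, a spread that covers its whole day 7 range. Without value 1 of day 21 its change was 0.01. The difference in change between miR-100 and miR-99b was 2.37, with an exact permutation p of 0.0286 (two-sided, 4 against 4 values, the smallest that 70 splits allow) and an adjusted p of 0.074 over the 88 pairs with a shared seed. miR-125b-5p was at 0.44 ± 0.14 (adjusted p 0.00633, relative to U6 0.336) and turned negative with snoRNA202 (-0.06) and raw Ct (-0.44). miR-125a-5p was at -0.14 ± 0.35. The list's median was -0.14, and 0.06 with snoRNA135 and 0.59 under quantile scaling.

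In the miR-29 family, which targets collagens and other matrix genes, 2 of 3 members rose. miR-29c had 20.65, 21.68, 21.42 and 20.85 on day 7 and 19.82, 19.88, 19.02 and 18.65 on day 21, a change of 1.81 ± 0.42 (adjusted p 0.000781; on raw Ct 0.92, adjusted p 0.0783, which did not pass). All 4 of its day 21 values lay below those of day 7 in Ct, although each arm spread over about a cycle. miR-29a changed by 0.90 ± 0.18 (adjusted p 0.000172, relative to U6 0.0435), a call that ended with snoRNA202 (0.39, adjusted p 0.148), U87 (0.68, adjusted p 0.0842), quantile scaling (0.23, adjusted p 0.378) and raw Ct (0.01, adjusted p 0.969). miR-29b differed from both in sign. It had 23.56, 23.84, 24.05 and 23.60 on day 7 and 24.84, 24.73, 24.51 and 24.08 on day 21, a change of -0.78 ± 0.18 that passed with the median miRNA (adjusted p 0.00077) but not with U6 (0.188). The copies of miR-29b sit beside miR-29a and miR-29c in the genome, at chr6:31063023-31063093 next to chr6:31062660-31062747 and at chr1:195037040-195037120 next to chr1:195037547-195037634. The difference in change was 1.68 between miR-29a and miR-29b and 2.58 between miR-29c and miR-29b in size, each with an exact permutation p of 0.0286 and an adjusted p of 0.074.

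The largest increase of all was that of miR-204, which lies in an intron of a Trpm gene and is best known from the retina. Its normalised Ct was 21.66, 21.84, 21.72 and 22.42 on day 7 and 19.72, 19.81, 19.56 and 19.52 on day 21. The baseline mean was 19.15 ± 0.07, so that day 21 lay 0.50 log2 units below the uninjected level. The change was 2.26 ± 0.16 (4.78-fold, adjusted p 2.93e-10, relative to U6 0.000174).

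In the vessel wall list 4 of 6 rose, where 19% rose over all tested, with a list median of 1.42 that was 0.46 under quantile scaling and 0.54 on raw Ct. Under both of these and with snoRNA202, 2 members passed as lower. miR-126-3p and miR-126-5p, the arms of a hairpin inside the endothelial gene Egfl7, changed by 1.47 ± 0.13 and 1.67 ± 0.18. miR-126-3p had 14.30, 14.43, 14.37 and 14.38 on day 7 and 12.87, 13.06, 12.91 and 12.77 on day 21, and all 4 day 21 values lay more than a cycle below those of day 7. miR-143 and miR-145, which are made from a common transcript in smooth muscle, changed by 1.38 ± 0.16 and 1.61 ± 0.15. The adjusted p relative to U6 ran from 0.00091 to 0.0102 over these 4. Quantile scaling ended the call of miR-126-3p (0.14, adjusted p 0.282). miR-221 and miR-222, made in endothelium and in dividing myoblasts, were at -0.25 and -0.23 (adjusted p 0.258 and 0.162).

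None of the 9 let-7 family members passed on both scales. let-7 miRNAs accumulate as cells leave division and differentiate. Relative to the median miRNA 7 of the 9 were higher, where 35.2% were over all tested. They ran from let-7i at 0.33 to let-7g at 1.04 (adjusted p 5.03e-05, relative to U6 0.0749). Relative to U6 0 passed, and the family's median of 0.61 turned to -0.27 on raw Ct. miR-98, which has the let-7 seed, had 26.08, 28.14, 28.40 and 28.07 on day 7, and on day 21 32.75, 28.78 and 29.21 beside a well at cycle 40, which was left out of the fit. Its change of -2.58 ± 1.45 had an adjusted p of 0.119.

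In the miR-15/16 family, known to restrain cyclins, miR-16 and miR-195 rose (2 of 5). miR-195 had 18.42, 18.20, 18.19 and 18.42 on day 7 and 16.89, 16.86, 17 and 17.04 on day 21, against 17.20, 16.93, 16.90 and 16.94 at baseline. The day 21 and baseline values overlapped. Its change was 1.36 ± 0.11 (adjusted p 1.48e-09). miR-16 changed by 0.89 ± 0.17 (adjusted p 0.00011, relative to U6 0.049), and lost its call with snoRNA202 (adjusted p 0.11), U87 (0.0703), quantile scaling (0.322) and raw Ct (0.972). miR-15b was at -0.53 ± 0.14 (adjusted p 0.00235, relative to U6 0.524). The median of the family, 0.66, was -0.22 on raw Ct.

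The largest decrease was that of miR-298. This miRNA lies next to miR-296 near the imprinted Gnas locus, and miR-296-5p was at -0.07 ± 0.32 (adjusted p 0.843). Normalised Ct of miR-298 was 23.64, 23.73, 23.89 and 23.25 on day 7 and 29.55, 31.06, 30.63 and 30.09 on day 21. In 0 of the 4 baseline wells was its raw Ct under 35. The day 7 values lay within a cycle of one another and more than 5 cycles from any of day 21, a change of -6.71 ± 0.53, or 104.5-fold (adjusted p 1.12e-08, relative to U6 2.2e-09).

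miR-351 was next in size and belongs to an X-linked cluster with miR-322 and miR-503, whose members are induced in differentiating myoblasts. It had 24.55, 24.92, 25.82 and 23.24 on day 7 and 29.84, 30.03, 30.62 and 30.59 on day 21, a change of -5.64 ± 0.53 (49.8-fold, adjusted p 1.12e-08). Its day 21 values lay within a cycle of one another. miR-322, in contrast, rose. It had 21.04, 20.97, 21.05 and 20.57 on day 7 and 19.61, 19.26, 20.08 and 19.96 on day 21, a change of 1.18 ± 0.18 (adjusted p 1.16e-05, relative to U6 0.0429), lost on raw Ct (0.29, adjusted p 0.179). Its hairpin (chrX:53054255-53054349, minus strand) lies beside that of miR-503 (chrX:53053984-53054054, minus). miR-503 had 22.85, 23.16, 23.20 and 22.23 on day 7 and 24.09, 23.90, 23.78 and 23.73 on day 21, without overlap. Its change of -1.02 ± 0.17 had an adjusted p of 3.11e-05, and 0.0695 relative to U6. Of the 6 members of the cluster 1 rose and 1 fell, and the median of -0.49 turned to 0.18 under quantile scaling. miR-351 carries the seed of miR-125, and its change differed from that of miR-125b-5p by 6.08 and from that of miR-125a-5p by 5.50 (exact permutation p 0.0286 each, adjusted p 0.074).

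**Figure D3:**
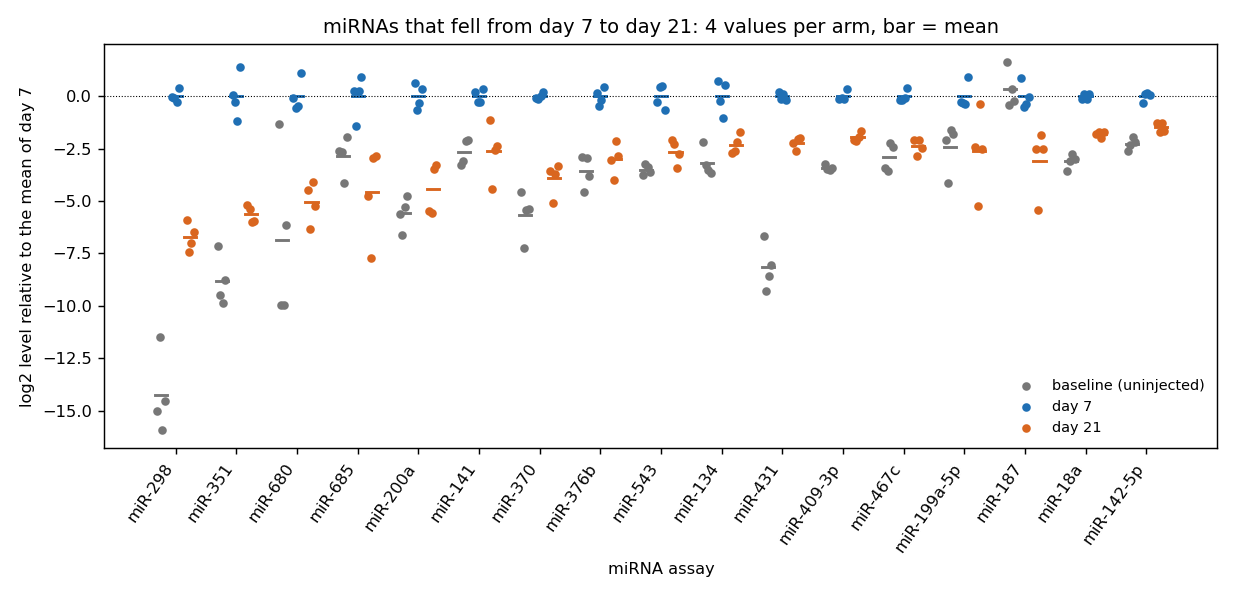
Log2 level of 17 miRNAs that fell, relative to each one's day 7 mean, with 4 values per arm as points and the arm mean as a bar. Grey is the uninjected baseline, blue day 7 and orange day 21; all 4 baseline wells of miR-298 were over Ct 35 and so below detection, and miR-187 is drawn with its baseline near day 7.

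The Dlk1-Dio3 region on chromosome 12 is an imprinted locus whose maternal chromosome produces a large group of miRNAs, many of them active in embryonic and regenerating muscle. Of 30 measured members 10 fell, 1 rose and 19 did not pass on both scales, where 14.4% fell and 19% rose over all tested, and the list's median change was -0.96 against -0.11 over all tested. Relative to the median miRNA alone 19 were lower and 2 higher, where 35.2% were lower and 35.2% higher over all tested. miR-370 had 23.92, 23.97, 23.81 and 23.62 on day 7 and 27.39, 28.92, 27.53 and 27.14 on day 21, a change of -3.92 ± 0.70 (15.1-fold, adjusted p 4.86e-05). Its hairpin lies at chr12:109618258-109618336 on the plus strand. The day 7 values were within 0.35 cycles of one another, and 1 of the 4 day 21 values lay inside the baseline range of 28.42 to 31.07.

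miR-376b (-3.01 ± 0.45), miR-543 (-2.64 ± 0.33), miR-134 (-2.30 ± 0.42), miR-431 (-2.22 ± 0.56) and miR-665 (-2.06 ± 0.54) followed. miR-409-3p was at -1.96 ± 0.14, with an adjusted p of 2.93e-10. miR-433, miR-376a and miR-323-3p changed by -1.71, -1.49 and -1.44. Of these, miR-323-3p lost its call under quantile scaling (-0.39, adjusted p 0.166). The member that rose was miR-136, with 20.37, 20.82, 20.66 and 21.22 on day 7 and 19.92, 19.53, 19.90 and 19.73 on day 21. Its change was 1.00 ± 0.22 (adjusted p 0.000406, relative to U6 0.0464), and it lost its call with snoRNA202 (0.49, adjusted p 0.0977), U87 (0.78, adjusted p 0.0633) and raw Ct (0.11, adjusted p 0.678). The baseline mean of miR-136 was 22.26 ± 0.36, so that it was the one riser that moved away from its uninjected level. Members that hardly differed included miR-434-3p (0.01 ± 0.17, adjusted p 0.961) and miR-329 (-0.13 ± 0.22, adjusted p 0.609).

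Among the 6 epithelial miRNAs, 4 of the 5 tested fell and 1 rose. The miR-200 family keeps epithelial cells epithelial by repressing Zeb1 and Zeb2. miR-200a had 27.77, 29.06, 28.69 and 28.03 on day 7 and 33.85, 33.95, 31.84 and 31.68 on day 21, a change of -4.44 ± 0.47 (21.8-fold, adjusted p 7.13e-08). Its baseline values of 33.99, 35, 33.67 and 33.15 overlapped with those of day 21. miR-141, which has the same seed, changed by -2.63 ± 0.44, and its call ended under quantile scaling (-0.56, adjusted p 0.13). Its raw Ct on day 21 was 31.07, 34.43, 32.51 and 32.43, and that of miR-200a reached 34.4. Both came near the detection limit of 35, so the sizes of these changes are less sure. miR-200b changed by -1.90 ± 0.35 and miR-200c by -1.60 ± 0.20.

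miR-429, the fifth miRNA of the family, was detected on day 7 only. Its raw Ct was 29.85, 31.77, 30.90 and 29.28 on day 7, and on day 21 33.91 and 35.54 in values 3 and 4, with the others at the last cycle, 40. With wells over Ct 35 set to 35 it was at least 10.5-fold lower on day 21, or at least 9.6-fold relative to U6, with no test. miR-203, a miRNA of skin, rose instead, from 21.93, 22.24, 22.02 and 22.16 to 21.54, 21.25, 20.94 and 21.06. The change of 0.89 ± 0.17 (adjusted p 0.000138, relative to U6 0.0465) was lost with snoRNA202 (adjusted p 0.125), U87 (0.0703) and raw Ct (0.982). The list's median was -1.90, with -0.73 under quantile scaling and -2.79 on raw Ct. What part epithelial cells in the dissected tissue had in these values was not tested.

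miR-680 and miR-685 followed miR-298 and miR-351 in size among the decreases. miR-680 had 28.39, 28.85, 28.78 and 27.16 on day 7 and 32.76, 34.64, 32.40 and 33.53 on day 21, a change of -5.04 ± 1.21 (adjusted p 0.000941). Its baseline values spread with an SD of 4.09 cycles, which the fit shares, and 2 of the 4 baseline wells were under Ct 35. miR-685 had 25.15, 26.80, 25.11 and 24.48 on day 7 and 30.13, 33.11, 28.33 and 28.25 on day 21, a change of -4.57 ± 0.77 (adjusted p 2.75e-05). miR-187 changed by -3.08 ± 0.75 (adjusted p 0.00105), with a call that ended under quantile scaling (-0.92, adjusted p 0.1).

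Of 11 miRNAs of the miR-17 cluster and its paralogues, which promote cell division, miR-18a fell and 0 rose. On the median-miRNA scale 7 including miR-18a passed as lower, where 35.2% did over all tested. miR-18a had 21.95, 21.70, 21.96 and 21.72 on day 7 and 23.65, 23.54, 23.80 and 23.54 on day 21, a change of -1.80 ± 0.15 (adjusted p 3.71e-09). Both arms were narrow, each within 0.26 cycles. The rest of the list ran from -1.03 (miR-20b) to 0.22 (miR-92a), with a list median of -0.72. The 6 miRNAs with the seed AAAGUGC, miR-17, miR-20a, miR-20b, miR-93, miR-106a and miR-106b, were all negative, from -1.03 to -0.19, and 0 of them passed on both scales.

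In the cluster within an intron of Sfmbt2, an imprinted gene, miR-467c (-2.38 ± 0.26) and miR-467d (-2.21 ± 0.36) fell, and the other 4 of 6 did not pass on both scales. These are members of a repetitive family whose sequences are much alike, and cross-detection was not tested. In the X-linked Clcn5 cluster miR-188-5p fell (-1.82 ± 0.24, adjusted p 1.71e-06), with 22.84, 23.14, 23.20 and 22.19 on day 7 and 24.67, 24.60, 24.77 and 24.59 on day 21. On the median-miRNA scale 5 of its 6 members passed as lower, where 35.2% did over all tested, and the list's median was -0.77.

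Of the 10 blood cell miRNAs 1 rose, miR-150, a miRNA of mature lymphocytes, and 2 fell, miR-142-5p and miR-342-5p, shares near those over all tested (19% and 14.4%). miR-150 had 17.51, 17.99, 17.72 and 18.07 on day 7 and 17.03, 16.75, 16.47 and 16.44 on day 21, a change of 1.15 ± 0.19 (adjusted p 2.65e-05, relative to U6 0.0106), lost on raw Ct (0.27, adjusted p 0.324). miR-142-5p, found in nearly all white cells, changed by -1.48 ± 0.15 (adjusted p 4.89e-08), and its partner arm miR-142-3p was at -1.43 ± 0.24 (adjusted p 2.09e-05, relative to U6 0.0683). miR-223, the miRNA of neutrophils and macrophages, had 17.26, 17.28, 17.29 and 17.17 on day 7 and 18.08, 18.24, 18.22 and 18.11 on day 21. These did not overlap, but the change of -0.91 ± 0.11 passed relative to the median miRNA (adjusted p 3.53e-07) and not relative to U6 (0.147). miR-155 of activated immune cells was at 0.69 ± 0.14 (adjusted p 0.00014, relative to U6 0.141). The list's median was -0.85, and it was detected in every well of both time points. miR-342-5p, at -1.91 ± 0.39, lost its call under quantile scaling (-0.65, adjusted p 0.101).

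miR-451, which is restricted to red cells, was at 1.18 ± 0.36 (adjusted p 0.00576, relative to U6 0.0591). It had 21.45, 22.53, 21.26 and 21.27 on day 7 and 20.19, 20.50, 20.11 and 20.97 on day 21, without overlap. What part blood left in the muscle had in the other changes was not tested. Of the 4 fibroblast miRNAs, miR-199a-5p fell and 3 did not pass on both scales. miR-199a-5p had 27.15, 27.18, 27.25 and 25.95 on day 7 and 29.29, 32.10, 27.23 and 29.41 on day 21. Value 3 of day 21 lay inside the day 7 range, and without value 2 the change of -2.63 ± 0.85 (adjusted p 0.00905) became -1.75 with an adjusted p of 0.052. miR-21 and miR-214, both raised in fibrotic tissue, were at -0.75 and -1.04, which passed on the median-miRNA scale (adjusted p 0.0012 and 2.48e-05) but not with U6 (0.291 and 0.0949).

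Among 14 satellite cell and myoblast miRNAs, 3 rose and 0 fell, and the share that rose was near the 19% over all tested. These were miR-489, which is known to hold satellite cells in quiescence, miR-26a, and miR-181a, known from differentiating myoblasts. miR-489 had 26.63, 26.66, 26.90 and 28.21 on day 7 and 25.64, 26.00, 25.84 and 25.68 on day 21. A single day 7 value lay apart, away from day 21, and the change was 1.31 ± 0.36 (adjusted p 0.00313, relative to U6 0.025). miR-181a changed by 1.11 ± 0.28 (adjusted p 0.00141), and its ranges overlapped. Both lost their calls with snoRNA202 (adjusted p 0.0647 and 0.106), and on raw Ct (0.299 and 0.533), and miR-181a with U87 as well (0.0507). miR-31, which restrains the myogenic factor Myf5, did not pass. Its normalised Ct was 19.14, 19.64, 19.70 and 18.98 on day 7 and 19.58, 19.48, 19.22 and 19.01 on day 21, a change of 0.04 ± 0.24 (adjusted p 0.879), while its baseline values lay between 24.90 and 26.31. The list's median of 0.47 turned to -0.03 with snoRNA202 and -0.41 on raw Ct.

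Of the 4 neuronal miRNAs 0 passed on both scales, and the median of 0.26 was -0.25 with snoRNA202 and -0.62 on raw Ct. miR-192 and miR-194, the liver and endocrine list, both rose (0.93 ± 0.12 and 0.90 ± 0.25). Their adjusted p relative to U6 was 0.0453 and 0.0494, and both lost their calls on raw Ct (adjusted p 0.827 and 0.969). miR-194 also lost its call with snoRNA202 (0.39, adjusted p 0.167).

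**Figure D4:**
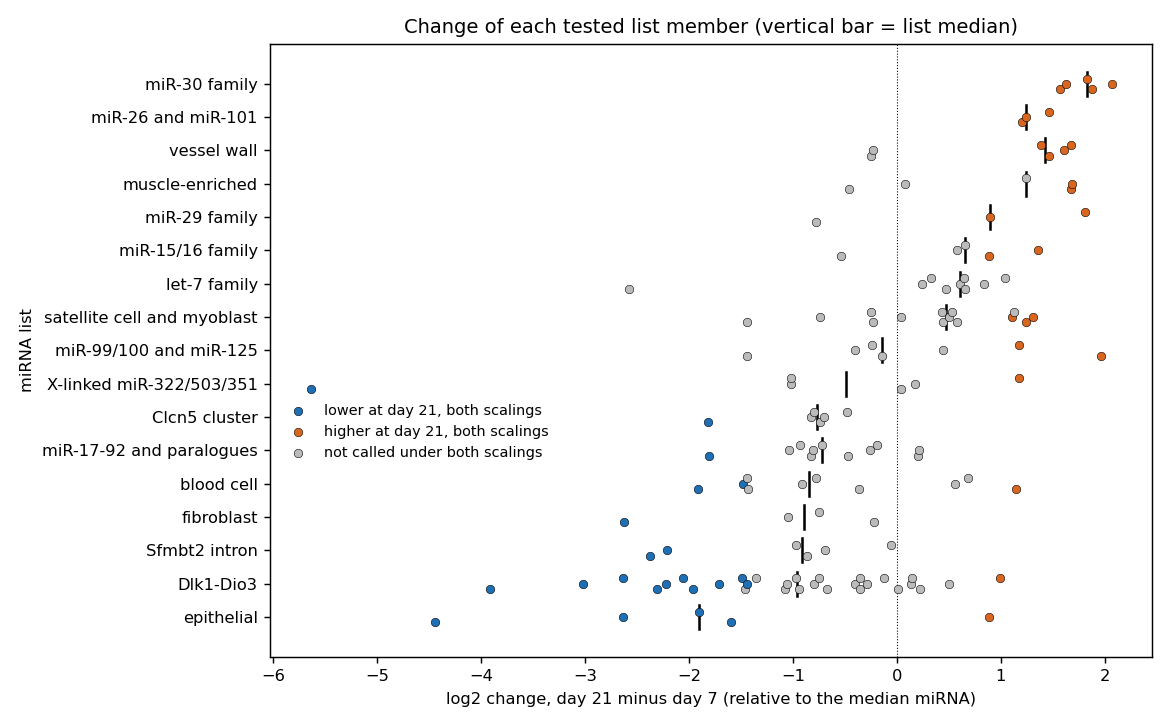
Log2 change from day 7 to day 21 of every tested member of 17 lists, relative to the median miRNA, with the list's median as a vertical bar. Orange members rose and blue members fell on both scales; the miR-30 list lies between 1.57 and 2.07, and the Dlk1-Dio3 list runs from -3.92 to 1.00.

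miRNAs were also set side by side by seed. Among the 144 matched assays, 71 fell into 25 seeds with at least 2 members, and 9 of the 25 seeds had members of both signs. The 8 pairs of miR-98 with let-7 members were left out because of its well at cycle 40. Of the other 88 pairs with a shared seed, 74 differed by less than 1 log2 unit. The share among pairs without a common seed was not computed, and large families such as let-7 supply many of the 88. The exact permutation test, over 4 against 4 values, gave its smallest p of 0.0286 for 34 pairs. The adjusted p was under 0.05 for 0 of the 88, the smallest being 0.074. Because no p can be lower than 0.0286, the adjusted p depends on how many pairs reach it, whatever the size of their difference. The 0 of 88 therefore does not show that members of a seed changed alike. The seed AUGACAC was the only one of the 25 with calls in both directions. miR-425, with 23.91, 24.84, 24.41 and 23.89 on day 7 and 26.64, 28.23, 24.50 and 26.30 on day 21, changed by -2.16 ± 0.62 (adjusted p 0.00407), and value 3 of its day 21 lay inside the day 7 range. miR-489, given above, rose by 1.31, and the pair differed by -3.46 (exact permutation p 0.0286, adjusted p 0.074).

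The 2 arms of a hairpin come from the same precursor, of which usually only one strand is kept in quantity. Both arms were tested for 17 hairpins. The changes had the same sign in 11 and opposite signs in 6, and in 11 they differed by less than 1 log2 unit. miR-142 (-1.43 for 3p, -1.48 for 5p) and miR-532 (-0.70, -0.74) had nearly equal changes in both arms. miR-335-3p fell (-2.05 ± 0.24) while miR-335-5p was at -0.24 ± 0.27. miR-345-5p rose (1.29 ± 0.16, lost on raw Ct with an adjusted p of 0.054) while miR-345-3p was at -0.68 ± 0.38. miR-125b-3p was at -1.44 ± 0.40 against 0.44 for miR-125b-5p. For these 3 hairpins and for miR-340, miR-342, miR-434 and miR-542 the difference between arms had an exact permutation p of 0.0286, the smallest possible. Their adjusted p was 0.0695 over the 17, and it too was set by how many hairpins reached that smallest p. miR-199a-3p, at -0.22 ± 0.18, and miR-199a-5p, at -2.63, differed with p 0.0857 (exact permutation, adjusted 0.162).

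**Figure D5:**
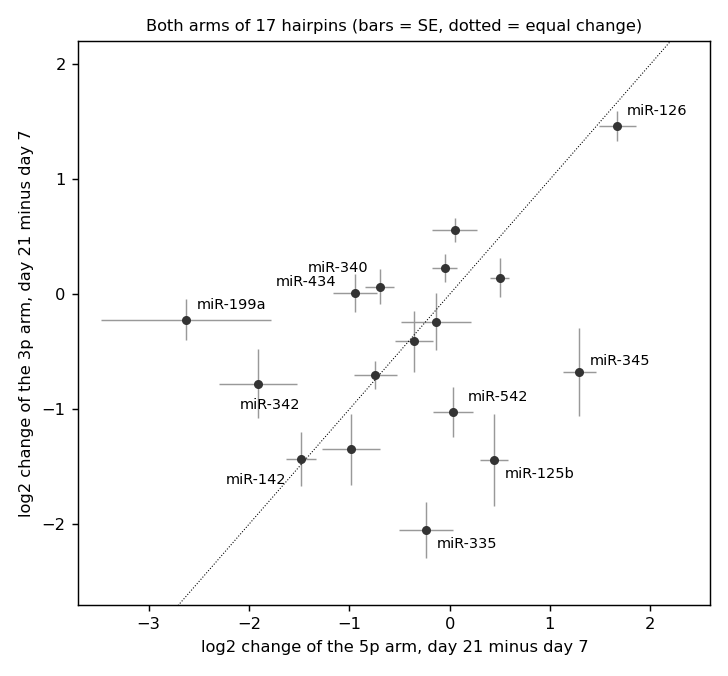
Log2 change from day 7 to day 21 of the 5p arm (horizontal) and the 3p arm (vertical) of 17 hairpins, relative to the median miRNA, with standard errors as bars and equal change as a dotted line. miR-126 lies near the line at the upper right, and miR-335, miR-345 and miR-125b lie below it.

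Beside the uninjected baseline, most of the 72 miRNAs lay on day 21 between their day 7 mean and their baseline mean. This was so for 33 of the 41 that rose, while 7 lay past the baseline mean and 1, miR-136, moved away from it. The baseline mean exceeded the day 21 mean by a median of 0.81 log2 units over the 41, and the day 21 and baseline ranges overlapped for 9. Among those below the baseline mean, miR-135a was farthest from it (2.59 log2 units), followed by miR-185 at 1.87, miR-29c at 1.75 and miR-101a at 1.67, while miR-136 lay 2.50 above its own. The call of miR-185 was lost on raw Ct (0.065, adjusted p 0.77). miR-195, miR-489, miR-10b and miR-322 were within 0.10 of it. Of the 31 that fell, 23 lay between, 6 past the baseline mean and 2 away from it, and the ranges overlapped for 15. On day 21 miR-433 was still 8.45 log2 units above its baseline and miR-431 5.93 above. The baseline raw Ct of miR-433 was 33.76, 34.83, 34.98 and 33.31, close to the detection limit of 35. miR-187 and miR-339-3p, which on day 7 lay 0.34 from their baseline means, were 3.42 and 1.68 log2 units below them on day 21. These placements are descriptions, without a test. They were made for the 72 miRNAs only, and the shares over all 216 tested were not computed. The counts therefore do not set the 72 apart from the rest.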

How the data were processed

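The authors deposited raw, unnormalised Ct values, a score on the PCR cycle scale. Per the labels' protocols, RNA of integrity number over 9 was assayed with TaqMan reactions over 40 cycles. The Ct threshold setting is not given in the sources used here. Ct values have no read depth, and 4 values per arm limit the precision. A miRNA was tested where at least 3 of 4 wells of both time points were under Ct 35, and wells at 40 were left out of the fit. From these values limma 3.58.1 (lmFit, eBayes) in R 4.3.3 fitted all 6 arms together (18 residual degrees of freedom), two-sided, with Benjamini-Hochberg adjustment over 216 miRNAs. In 20 simulated data sets of 216 miRNAs for day 21 versus day 7, the median-miRNA fit recovered 84.3% of changes of log2 1 and 95.8% of log2 2 and called 0.924% of unchanged miRNAs. Equal numbers of miRNAs were raised and lowered there, and most were unchanged, so these rates cannot show an error of the reference. The rule of passing on both scales was not simulated.

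The named miRNAs were miR-100, miR-101a, miR-30c and miR-1, the 12 largest increases and 12 largest decreases passing on both scales, all members of the muscle-enriched, miR-30, miR-29, miR-26 and miR-101, and miR-99, miR-100 and miR-125 lists, up to 4 members of each other list, and any miRNA detected in 1 arm only. Others, such as miR-425, miR-335-3p, miR-345-5p, miR-31, miR-136, miR-203, miR-150, miR-223 and those placed beside the baseline, were chosen after their values were seen. The members and the 20 lists were chosen with earlier results of these data known. Seed pairs and hairpin arms were compared by an exact permutation test on the within-set difference.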

Additional observations from a re-analysis of the deposited data

Results flagged for a closer look

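In 12 of 176 sets of 4 values (82 named miRNAs, miR-429 and 5 control RNAs on day 7 and day 21) a single normalised Ct stood apart from the other 3 beyond Dixon's 95% limit, where chance marks about 1 in 20. On day 7, miR-30c had a value of 16.54 against 15.94 to 16.03, miR-384-5p 25.58 against 26.39 to 26.42, miR-322 20.57 against 20.97 to 21.05, and miR-489 28.21 against 26.63 to 26.90. miR-199a-5p had 25.95 against 27.15 to 27.25, miR-214 17.84 against 18.41 to 18.50, miR-98 26.08 against 28.07 to 28.40, and miR-451 22.53 against 21.26 to 21.45. Also on day 7, miR-142-5p had 25.00 against 24.55 to 24.62 and miR-147 30.13 against 29.65 to 29.71. On day 21, miR-214 had 19.80 against 19.13 to 19.24 and miR-132 19.72 against 19.93 to 19.94.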

How the results depend on the processing

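The number higher was 76, and 43 with U6, 38 with snoRNA202, 40 with U87, 15 on raw Ct and 37 with a 1.5-fold threshold tested by limma's treat. The number lower was 76, and 31 with U6, 114 with snoRNA202, 143 on raw Ct and 42 with treat. Leaving out each value in turn gave 73 to 75 higher and 71 to 77 lower. Other alternatives stayed within 1.5 times. Over 82 named miRNAs, 2042 alternative values kept direction and side of the threshold, 109 lost a call, 30 gained one and 29 changed sign; the causes were not tested. Outside these 82, miR-139-5p (raw Ct, -0.04) and miR-7b (quantile scaling, 0.002), which had risen and fallen, changed sign as well, and miR-133a was at 0 under quantile scaling. The 29 sign changes were those of miR-133b with snoRNA202 (-0.42), U87 (-0.13), quantile scaling (-0.73) and raw Ct (-0.80), and miR-125b-5p with snoRNA202 (-0.062) and raw Ct (-0.44). Under quantile scaling they were miR-499 (0.84), miR-125a-3p (0.77), miR-125b-3p (0.59), miR-467e (0.92), miR-147 (1.07) and miR-9 (0.31). On raw Ct they were let-7e (-0.042), let-7f (-0.23), miR-497 (-0.23), miR-15a (-0.30), miR-132 (-0.18) and miR-218 (-0.28). miR-125a-5p was 0.055 with snoRNA135, 0.021 with the baseline as reference and -0.34 to 0.047 with a value left out. miR-99b was -0.68 to 0.01 with a value left out. miR-138 was 0.043 with U6, 0.105 with snoRNA135, 0.040 with Y1, 0.045 with the median Ct, 0.071 with the baseline as reference and -0.18 to 0.005 with a value left out. Counting day 7 values 2 and 3 as 1 was chosen after seeing the data. No paired analysis was run, because the muscles came from 4 mice per time point and the labels pair no mice between time points. Limits are the 4 values per arm, the unknown plates, late Ct values of many fallers, and a reference that sets the balance of higher against lower calls.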

Other observations

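A few miRNAs outside the groups described above also rose. miR-338-3p changed by 1.42 ± 0.17 (adjusted p 4.02e-07), with 27.39, 27.96, 28.15 and 28.22 on day 7 and 26.49, 26.54, 26.70 and 26.30 on day 21. miR-193b, known from brown fat and muscle, changed by 1.38 ± 0.26, and miR-23b by 1.34 ± 0.20. miR-10b, which lies in a Hox cluster, changed by 1.17 ± 0.18, and miR-135a by 1.15 ± 0.19. Their values did not overlap between the time points. On raw Ct, miR-193b, miR-23b, miR-10b and miR-135a lost their calls (adjusted p 0.111, 0.0671, 0.238 and 0.167).

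Among the decreases, miR-182, which is abundant in sensory tissue, changed by -1.49 ± 0.25 (adjusted p 2.48e-05), with 24.39, 24.74, 24.87 and 24.63 on day 7 and 26.46, 26.53, 26.16 and 25.45 on day 21. miR-7b changed by -1.26 ± 0.18 (adjusted p 4.96e-06) and by 0.002 under quantile scaling. miR-339-3p changed by -1.35 ± 0.31 (adjusted p 0.000671), and value 2 of its day 21 (26.13) lay beyond the other 3 (24.57 to 24.66).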
